A study of Caenorhabditis elegans with 12 samples.

Results

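H3K9me3, trimethylation of histone H3 at lysine 9, was compared between hrde-2 mutants and wild-type Caenorhabditis elegans over all nuclear genes. The comparison took the 3 hrde-2 and the 3 wild-type H3K9me3 libraries by their labels, 6 of the 12 libraries of the series. Of 46724 nuclear genes, 28655 had enough counts to be tested. The mark was profiled by CUT&Tag, in which an antibody brings a transposase to the chromatin it binds, so that the sequenced fragments report where the antibody sat. Values are fragments counted on the exons of each gene, given below as CPM, the counts put on a common scale by each library's total and its TMM factor in edgeR. A gene was called where the adjusted p-value of edgeR's quasi-likelihood test was below 0.05, and calls of 1 direction were joined into 1 locus where no more than 2 further tested genes lay between them. A locus of at least 3 called genes is named a block.

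HRDE-1 is a nuclear Argonaute of the germ line that is guided to nascent transcripts by 22G-RNAs, small RNAs made by RNA-dependent RNA polymerases. Silencing in the nucleus runs through the NRDE factors, and in worms MET-2 and SET-25 are methyltransferases of H3K9. 22G-RNAs fall into a WAGO class, carried by silencing Argonautes, and a CSR-1 class, which covers genes expressed in the germ line. The name hrde stands for heritable RNAi deficient, and hrde-2 is a second gene of this pathway.

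The mutants carried hrde-2(qe20), also named enri-3(qe20), on chromosome V (strain FD53), and the wild-type strain was N2. The labels name no further allele in either strain. Another genotype, hrde-1(tm1200), entered the same fit to share its estimate of the spread, so that the fit held 9 libraries, and 1 IgG library per genotype, made with no primary antibody, served as background. All animals were 1-day-old adults grown at 20 °C for about 68 h after the first larval stage. The methods describe germline nuclei isolated from lightly crosslinked animals in biological triplicate, while the tissue label reads whole worm. In a control with barcoded nucleosomes, described with the study's results, the antibody also bound H3K27me3 and H4K20me3, so counts are called H3K9me3 here by the label. With bulk nuclei, fewer nuclei of a kind and less mark per nucleus cannot be told apart.

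Total counts were 6882011, 1470699 and 8719542 in the wild-type libraries and 6254908, 6982902 and 6371367 in the hrde-2 libraries, while the IgG libraries held 233980 (wild-type) and 13950 (hrde-2). A gene without counts may have had up to 3, equal to between 0.344 and 2.04 CPM across the 6 H3K9me3 libraries. Nuclear rRNA genes took 13.2 to 24.6% of the counts, most in wild-type replicate 3. The mutated gene itself does not check the labels, because an exon count of a histone mark does not report an allele. hrde-2 (V, 15005100 to 15006400) gave 23.7, 18.8 and 21.9 CPM in wild-type and 24.5, 23.9 and 23.0 CPM in the mutants, groups that overlapped (log2 fold change 0.11, SE 0.17, edgeR adjusted p = 0.899). hrde-1 (III) gave 79.7, 86.4 and 99.3 CPM in wild-type and 114.6, 110.6 and 122.5 CPM in the mutants. These values did not overlap, but the test was not passed (log2 fold change 0.39, SE 0.12, edgeR adjusted p = 0.182). Marker genes likewise carry a mark here and not a transcript, so they do not check the labelled tissue. None of the marker lists of germ line, muscle, neuron, intestine, hypodermis or sperm had a gene at 0.

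In hrde-2 mutants 53 genes had higher H3K9me3 counts than wild-type and 89 had lower counts, which is 0.185% and 0.311% of the genes tested. Most changes were small. The median size of the log2 fold change was 0.69 among the higher genes and 0.74 among the lower genes, and 10 and 13 of them differed by more than 1 on the log2 scale. The higher genes formed 40 loci, of which 35 were single genes, 3 were pairs and 2 were blocks that together held 12 genes. The lower genes formed 71 loci, of which 65 were single genes, 3 were pairs and 3 were blocks that together held 18 genes. The direction of a call depends on the scaling: 37.3% of calls were higher with TMM, 74.4% with total counts alone and 91.1% with TMM restricted to the 10% of genes densest in counts per kb, settings that raised the median log2 fold change of all tested genes from 0.00 to 0.10 and 0.17. Changes are therefore relative within each library. The values of the 2 groups did not overlap for 53 of the 53 higher genes and for 88 of the 89 lower genes, the exception being the ncRNA T22B2.9. Over all genes tested, 7.14% had every mutant library above every wild-type library and 6.48% had every mutant library below.

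**Figure D1:**
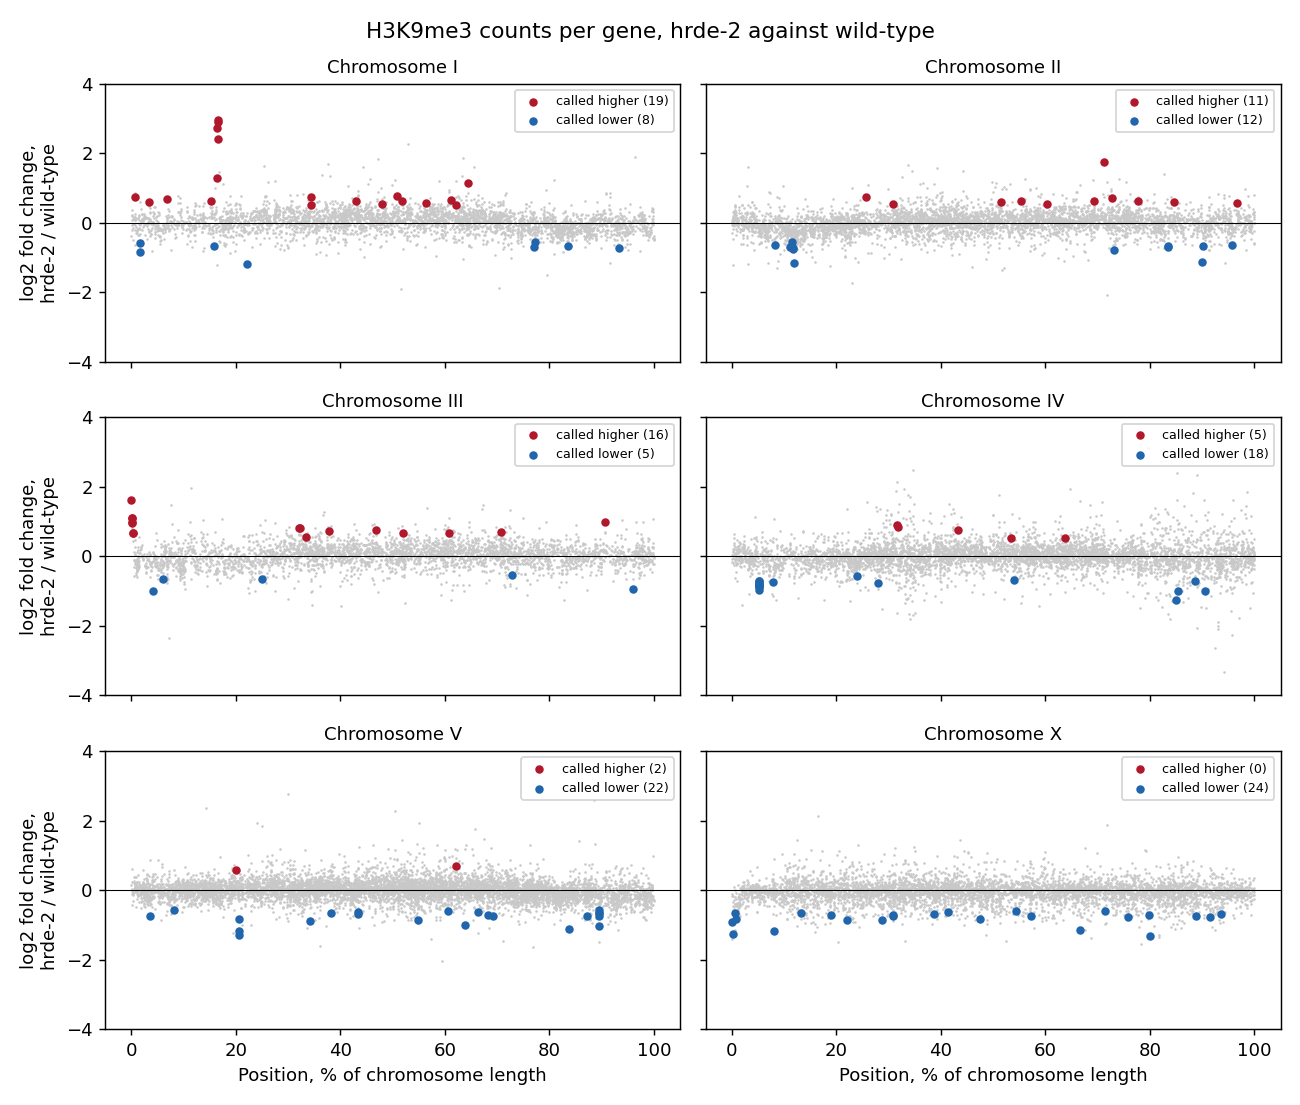
Log2 fold change of each tested gene (y axis, hrde-2 over wild-type) against its position in percent of the chromosome's length (x axis), 1 panel per chromosome. Grey points were not called. Red (higher) and blue (lower) points were called by edgeR, and the legend counts them as genes. There were 19 higher calls on I, 5 of them in 1 block, and 16 on III, 7 of them in 1 block. All 24 calls on X were lower.

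The highest gain was a block of 5 genes on chromosome I, from 2472066 to 2506259 (34.2 kb), in which every tested gene was called. Its lead was eif-3.I, a subunit of the translation initiation factor eIF3, with 20.2, 19.4 and 26.1 CPM in wild-type and 165, 179 and 185 CPM in the mutants. The groups were far apart, and the gain, 2.96 on the log2 scale (SE 0.14, edgeR adjusted p = 4.86e-18), was the largest of all calls. ddx-10, a DEAD-box helicase gene, rose from 24.8, 26.1 and 30.5 CPM to 200.1, 195 and 214 CPM (log2 fold change 2.89, SE 0.13, edgeR adjusted p = 1.68e-18). Y74C10AR.2 rose from 10.2, 6.70 and 10.6 CPM to 61.5, 65.8 and 69.6 CPM (log2 fold change 2.73, SE 0.18, edgeR adjusted p = 6.57e-14). Y23H5B.5 rose from 16.9, 10.7 and 20.2 CPM to 82.6, 93.8 and 96.8 CPM (log2 fold change 2.40, SE 0.16, edgeR adjusted p = 7.1e-14). These 4 genes lay side by side and gained by similar amounts. The fifth, abtm-1, which encodes a mitochondrial ABC transporter, gained less. It gave 11.7, 2.01 and 14.6 CPM in wild-type and 25.9, 29.0 and 27.6 CPM in the mutants (log2 fold change 1.29, SE 0.24, edgeR adjusted p = 0.00366). The body of Y74C10AR.2 lies within the span of abtm-1, so fragments there cannot be assigned to either strand's gene with certainty.

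The block on chromosome I ended sharply. On its left, inx-19, an innexin gap junction gene, gave a log2 fold change of -0.03 (SE 0.14), and Y74C10AL.2 gave 4.60, 6.03 and 4.46 CPM in wild-type against 1.07, 2.55 and 2.498 CPM in the mutants, a difference that was not called (edgeR adjusted p = 0.365). On its right, the pseudogene WBGene00021278 gave -0.12 (SE 0.18) and the ncRNA Y23H5B.13 gave 0.13 (SE 0.45). None of these 4 flanking genes was called. The summed counts of the block also differed between the IgG libraries, which were made without the primary antibody. Its 5 genes held 15 counts in wild-type IgG, 64.1 CPM with a Wilson 95% interval of 38.9 to 106, and 6 counts in hrde-2 IgG, 430.1 CPM with an interval of 197 to 938. Of the 6 counts in hrde-2 IgG, 5 fell on ddx-10 and 1 on eif-3.I, so the sum does not describe the other genes of the block. The intervals of the sums did not overlap, and the IgG difference had the direction of the H3K9me3 difference. The H3K9me3 sums of the 5 genes were 80.8 CPM in wild-type and 585 CPM in hrde-2, each the mean over the libraries of that genotype. For loci, these sums and the IgG values are total-count CPM, without the TMM factor. The part of this background in the gain was not tested. Intervals and floors cover counting error only, since PCR copies are not independent molecules.

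A second gained block filled the left end of chromosome III, from 1271 to 42021 (40.8 kb), with 7 of its 8 tested genes called. The first tested gene of the chromosome, fbxa-6, a member of the large nematode F-box family, led it with 15.2, 15.4 and 13.8 CPM in wild-type and 51.7, 44.1 and 38.6 CPM in the mutants (log2 fold change 1.61, SE 0.17, edgeR adjusted p = 1.68e-07). npr-30, a neuropeptide receptor gene, rose from 27.02, 23.43 and 26.39 CPM to 61.8, 52.4 and 54.3 CPM (log2 fold change 1.11, SE 0.14, edgeR adjusted p = 1.12e-05). nhr-80, a nuclear hormone receptor gene, rose from 44.3, 42.9 and 39.3 CPM to 86.9, 74.6 and 84.1 CPM (log2 fold change 0.96, SE 0.13, edgeR adjusted p = 3.23e-05). In each of these genes the lowest mutant library stood above the highest wild-type library. H10E21.4 rose from 34.8 to 37.0 CPM over the wild-type libraries to 74.3 to 81.7 CPM (log2 fold change 1.10, SE 0.13, edgeR adjusted p = 1.33e-06), and H10E21.5 gained 0.99 (SE 0.14, edgeR adjusted p = 2.85e-05). H10E21.1, between nhr-80 and H10E21.4, gave 6.41, 9.37 and 6.70 CPM and 13.31, 11.02 and 12.80 CPM and was not called (log2 fold change 0.81, SE 0.29, edgeR adjusted p = 0.279).

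Further from the chromosome end the gain was smaller. The calpain gene clp-10 rose from 70.3, 85.0 and 76.1 CPM to 126, 118 and 118 CPM (log2 fold change 0.66, SE 0.12, edgeR adjusted p = 0.00266). The collagen gene col-88, last of the block, rose from 98.6, 116 and 137 CPM to 158, 183 and 222 CPM (log2 fold change 0.68, SE 0.14, edgeR adjusted p = 0.00827), a call lost without wild-type replicate 1 or hrde-2 replicate 2 or 3 (0.54 to 0.85 over the alternatives). Beyond it, the snoRNA gene W05G11.7 (log2 fold change 0.44, SE 0.35) and the pseudogene WBGene00021040 (-0.57, SE 0.22) were not called. In IgG the 7 called genes held 175 CPM in wild-type (interval 129 to 238) and 287 CPM in hrde-2 (interval 112 to 737), intervals that overlapped. The plot of the blocks with their flanks shows the decline along III beside the block on I. The decline was uneven, with H10E21.4 (log2 fold change 1.10) above nhr-80 (0.96).

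**Figure D2:**
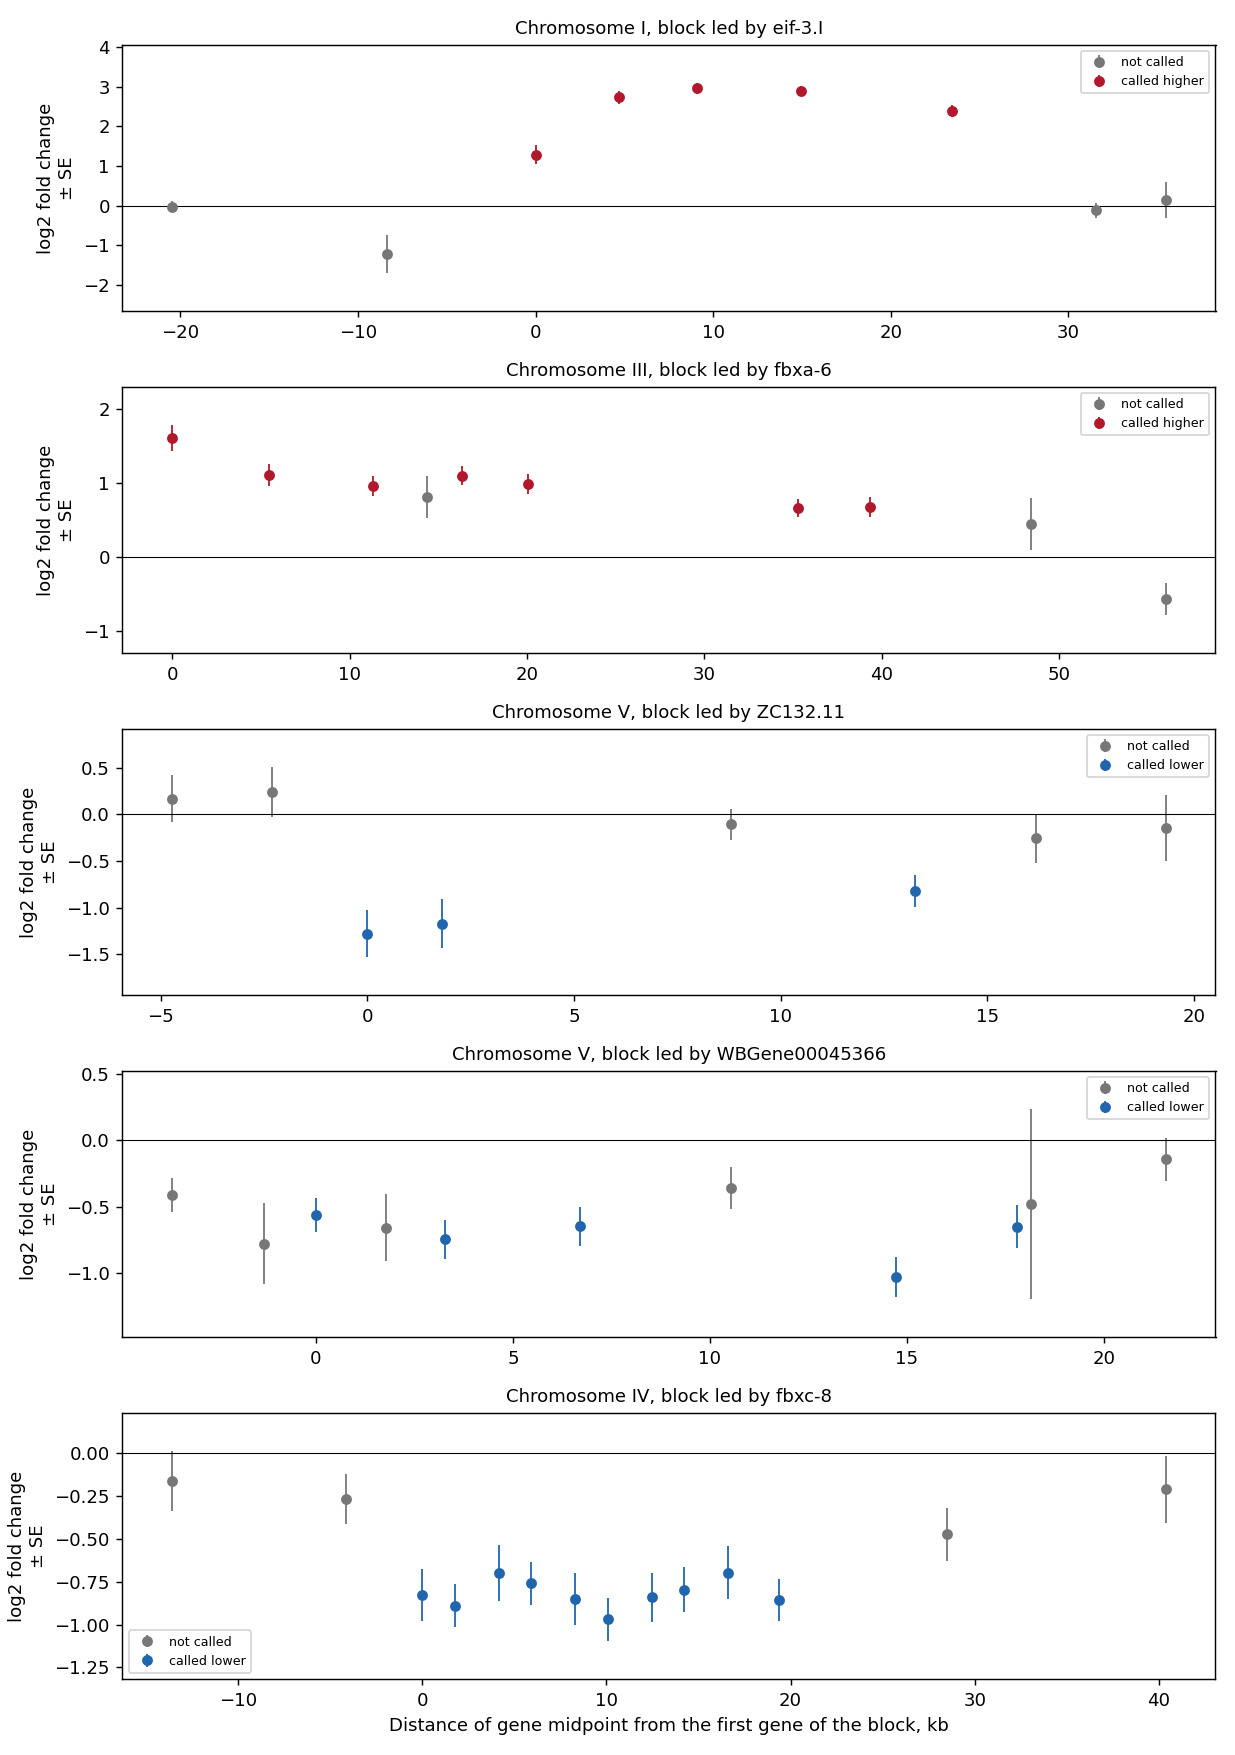
Log2 fold change (y axis, points, with the standard error as bars) of every tested gene of the 5 blocks and of up to 2 genes on each side, against the distance of the gene's midpoint from the block's first gene in kb (x axis). The gain on I reached 2.96 and was not seen in the flanks, the gain on III fell from 1.61 at the chromosome end to 0.68, and the 10 fbxc genes on IV lay between -0.70 and -0.97.

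Of the 3 gained pairs, those on IV and III were neighbouring tested genes, while the pair on I spanned 3 tested genes, 2 of them called. tebp-2, which encodes a protein of double-stranded telomeric DNA, rose from 58.6, 56.9 and 60.4 CPM to 96.2, 126 and 106 CPM (log2 fold change 0.89, SE 0.13, edgeR adjusted p = 4.17e-05). Next to it on IV, cec-6, a chromodomain gene, rose from 52.8, 40.8 and 47.9 CPM to 82.0, 91.5 and 86.8 CPM (log2 fold change 0.85, SE 0.13, edgeR adjusted p = 0.000105). Neither gene's groups overlapped. On III, C28A5.2 rose from 91.9, 87.7 and 105 CPM to 154, 194 and 163 CPM (log2 fold change 0.83, SE 0.12, edgeR adjusted p = 5.06e-05) and C28A5.1 by 0.81 (SE 0.12, edgeR adjusted p = 0.000134). These were the only 2 gained genes in which more than 50% of 50-base words recurred elsewhere in the genome (63.7% and 62.4%), so counts may be exchanged between copies. The last pair was on I and held hcp-6, a condensin II subunit, which rose from 83.4, 81.7 and 102 CPM to 140.3, 157 and 154 CPM (log2 fold change 0.74, SE 0.12, edgeR adjusted p = 0.000372). Its partner was the nucleoporin gene npp-6 (log2 fold change 0.52, SE 0.13, edgeR adjusted p = 0.0499), a call that held in 2 of the 6 fits that left out a replicate and in 10 of the 19 alternatives.

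Among single gained genes, orc-2 on II, a subunit of the origin recognition complex, stood first. It gave 12.5, 10.7 and 9.98 CPM in wild-type and 35.3, 38.3 and 39.5 CPM in the mutants (log2 fold change 1.76, SE 0.18, edgeR adjusted p = 6.01e-08). All mutant libraries stood far above the highest wild-type library. IgG held 1 count there in wild-type and 0 in hrde-2, where the Wilson 95% interval runs from 0 to 275 CPM, so that a background difference was not detectable at this depth. C04F12.16 on I rose from 8.36, 3.35 and 6.04 CPM to 14.22, 13.03 and 16.23 CPM (log2 fold change 1.14, SE 0.26, edgeR adjusted p = 0.0291), a call that was lost without wild-type replicate 2 or 3 or any single hrde-2 replicate (1.01 to 1.43 over the alternatives). herd-1 on III rose from 36.5, 38.8 and 42.4 CPM to 69.8, 83.9 and 78.8 CPM (log2 fold change 0.98, SE 0.13, edgeR adjusted p = 2.34e-05). Both of these genes separated the genotypes without overlap. ima-3, an importin alpha gene on IV, rose from 33.8, 41.5 and 36.8 CPM to 53.8, 59.0 and 72.1 CPM (log2 fold change 0.75, SE 0.14, edgeR adjusted p = 0.00271), and was not called without hrde-2 replicate 3 (0.63 to 0.92 over the alternatives). jhdm-1 on III, which encodes a JmjC-domain protein of the histone demethylase family, rose from 46.2, 26.1 and 41.5 CPM to 63.5, 78.2 and 60.7 CPM (log2 fold change 0.75, SE 0.15, edgeR adjusted p = 0.00568). Its call was lost without hrde-2 replicate 2 (0.62 to 0.92 over the alternatives).

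Of 30 listed genes of nuclear RNAi and H3K9 methylation, 4 rose and none fell, with a median log2 fold change of 0.24 and 25 genes above 0. Over all tested genes 0.185% were called higher and 0.311% lower, the median was 0.00 and 50.6% lay above 0. Genes with at least 2000 bases of exon, which include the 4 that rose, were called higher more often (0.903%). Of these long genes 2467 of 3878 lay above 0 (median 0.06). Germ line markers also lay mostly above 0 (11 of 12, median 0.34), so the shift was not particular to this list. ego-1, the germline RNA-dependent RNA polymerase that makes 22G-RNAs, rose from 70.5, 65.6 and 73.7 CPM to 120.4, 126 and 116 CPM (log2 fold change 0.78, SE 0.12, edgeR adjusted p = 0.000109). morc-1, a GHKL ATPase gene of chromatin compaction, rose from 43.9, 58.9 and 41.5 CPM to 75.6, 79.6 and 73.7 CPM (log2 fold change 0.73, SE 0.13, edgeR adjusted p = 0.00266). No mutant library of these genes fell within the wild-type range. znfx-1, the helicase of Z granules, rose from 110.3, 122 and 139.8 CPM to 179, 176 and 190.4 CPM (log2 fold change 0.55, SE 0.11, edgeR adjusted p = 0.0112), and the cytoplasmic Argonaute gene wago-1 rose from 52.5, 71.6 and 63.9 CPM to 85.8, 86.7 and 94.3 CPM (log2 fold change 0.54, SE 0.13, edgeR adjusted p = 0.0404). The call of ego-1 held in all 6 fits that left out a replicate, that of morc-1 too, that of znfx-1 in 3 and that of wago-1 in 2.

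Other gained loci held further genes of small RNA silencing, germ granules and cell division, which were named after their values were seen and are given without a test of the group. Gained genes outside these kinds included inft-2, glb-4 and Y14H12B.2, whose calls held in all 19 alternatives. pid-2, a factor of piRNA-guided silencing, was among the 12 leading gained loci and rose from 31.2, 33.5 and 39.9 CPM to 58.0, 60.1 and 59.2 CPM (log2 fold change 0.75, SE 0.14, edgeR adjusted p = 0.00344). pid-5, whose protein acts with PID-2, gained 0.59 (SE 0.13, edgeR adjusted p = 0.0129), the Argonaute gene wago-4 gained 0.60 (SE 0.12, edgeR adjusted p = 0.00786), the P granule gene deps-1 gained 0.60 (SE 0.13, edgeR adjusted p = 0.0111), and lotr-1, a LOTUS and Tudor domain gene, gained 0.56 (SE 0.13, edgeR adjusted p = 0.0347). The cell division genes were the midzone factor gene spd-1 (0.67, SE 0.15), the INCENP gene icp-1 (0.63, SE 0.14), the phosphatase gene cdc-25.1 (0.62, SE 0.14), the microtubule factor gene zyg-9 (0.61, SE 0.12), the spindle gene aspm-1 (0.66, SE 0.15) and the cohesin gene scc-1 (0.54, SE 0.12), with edgeR adjusted p-values from 0.00536 (zyg-9) to 0.0268 (icp-1). The nucleoporin gene npp-3 gained 0.63 (SE 0.12, edgeR adjusted p = 0.00266). The calls of npp-3 and pid-2 held in all 6 fits without a replicate, while those of pid-5, deps-1, spd-1 and aspm-1 held in 3, those of icp-1, cdc-25.1 and scc-1 in 2 and that of lotr-1 in 1. Of 14 replication licensing genes orc-2 alone was called, and 13 lay above 0 (median 0.28). Of 10 eIF3 subunits eif-3.I alone was called (median 0.12), and of 9 ddx helicases ddx-10 alone (median 0.18). Beside these lists, 0.185% of all tested genes were called higher and 50.6% lay above 0. eif-3.I and ddx-10 are neighbours in 1 block, so their calls count as 1 locus.

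**Figure D3:**
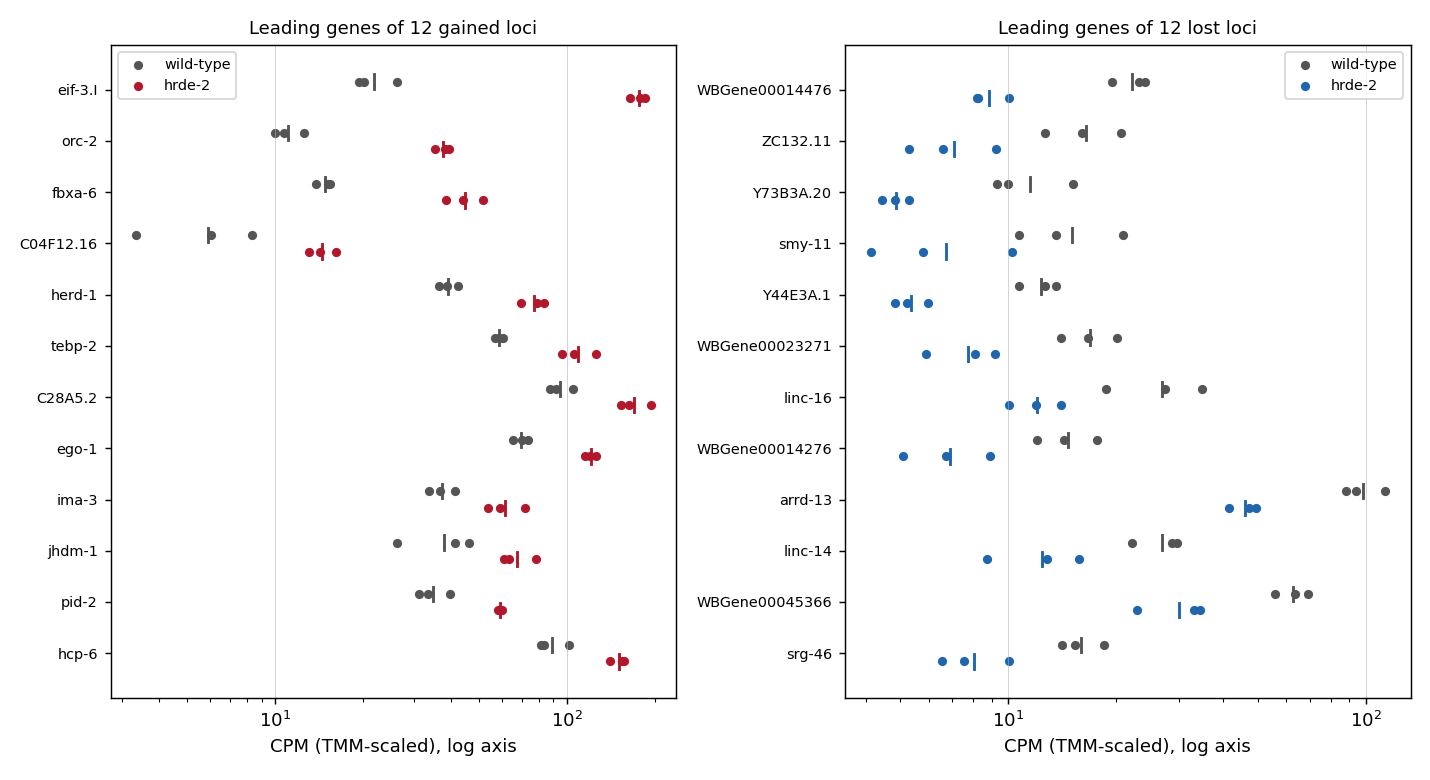
CPM (x axis, log scale) of the leading gene of the 12 gained loci (left, red for hrde-2) and the 12 lost loci (right, blue for hrde-2) with the largest changes. Each point is 1 library, 3 per genotype (grey for wild-type), and each short line is the mean. No gained or lost lead shown here overlapped between the genotypes, and the widest gap was that of eif-3.I, from 19.4 to 26.1 CPM in wild-type to 165 to 185 CPM in hrde-2.

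The largest lost block was a row of fbxc genes, F-box genes of the C subfamily, on IV from 891239 to 913167. All 10 tested genes of the row were called, with log2 fold changes from -0.70 to -0.97. Its lead was the fbxc-8 copy WBGene00045299, which fell from 85.4, 102 and 103 CPM to 44.4, 51.2 and 51.4 CPM (log2 fold change -0.97, SE 0.13, edgeR adjusted p = 1.12e-05). The neighbouring fbxc-12 fell from 105, 109.8 and 111 CPM to 50.5, 67.7 and 69.0 CPM (log2 fold change -0.80, SE 0.13, edgeR adjusted p = 0.00051). The mutant values of both genes were all below the wild-type range. The weakest of the row were copies of fbxc-4. WBGene00016648 fell by 0.70 (SE 0.17, edgeR adjusted p = 0.0341) and WBGene00019073 fell by 0.70 (SE 0.15, edgeR adjusted p = 0.0193), and both calls were lost without hrde-2 replicate 1 or 2, the first also without wild-type replicate 2 or hrde-2 replicate 3 and the second without wild-type replicate 1 (-0.55 to -0.81 and -0.55 to -0.78 over the alternatives). Of 48 tested fbxc genes, no other was called, and the flanking genes mak-2 (log2 fold change -0.27, SE 0.15) and F58H7.5 (-0.47, SE 0.16) were not called either.

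The row is made of near-identical copies, so its values are shared in part. Of the 5 copies with a body of 1376 bases, any pair differed at 0 to 2 positions, and of the 3 compared copies with 1782 bases, any pair differed at 0 to 3. Short stretches are shown around the 2 positions that separate a copy of fbxc-5 (WBGene00016649) from a copy of fbxc-4 (WBGene00016648). These positions are the only ones at which the bodies of the 2 genes differ, and sequence beyond the bodies was not compared. The stretches are read 5′ to 3′ on the coding strand from the WBcel235 genome on chromosome IV. The capital marks the base that differs, and positions count from 1 at the gene's 5′ end (A987T and T1107A, fbxc-5 base first).
fbxc-5, position 987: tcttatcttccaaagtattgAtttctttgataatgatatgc
fbxc-4, position 987: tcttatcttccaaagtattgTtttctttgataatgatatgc
fbxc-5, position 1107: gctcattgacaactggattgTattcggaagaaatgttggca
fbxc-4, position 1107: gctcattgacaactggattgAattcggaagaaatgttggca
IgG moved the other way in this row, with 227 CPM in wild-type (53 counts, interval 173 to 296) and 1290 CPM in hrde-2 (18 counts, interval 816 to 2039). The H3K9me3 sum was 762 CPM in wild-type and 455 CPM in hrde-2, as means of total-count CPM over the libraries of each genotype.

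A lost block on V, from 18706570 to 18725759, held 5 called genes of 7 tested. Its lead, the pseudogene WBGene00045366, fell from 55.7, 69.0 and 63.5 CPM to 33.0, 34.5 and 23.0 CPM (log2 fold change -1.03, SE 0.15, edgeR adjusted p = 6.21e-05). Y17D7C.6 fell from 42.5, 48.9 and 43.3 CPM to 27.2, 28.8 and 23.0 CPM (log2 fold change -0.75, SE 0.15, edgeR adjusted p = 0.00765), and was not called without hrde-2 replicate 3 (-0.58 to -1.23 over the alternatives). The groups of both genes were apart. The pseudogene WBGene00050903 (log2 fold change -0.65, SE 0.15), Y17D7C.1 (-0.56, SE 0.13) and the ncRNA Y17D7C.9 (-0.65, SE 0.16) were called in fewer settings: 12, 10 and 7 of the 19 alternatives. Each of these 3 calls was lost without wild-type replicate 3 and when any single hrde-2 replicate was left out, and that of Y17D7C.1 also without wild-type replicate 1. The 2 tested genes between them, WBGene00077454 (-0.66, SE 0.25) and Y17D7C.2 (-0.36, SE 0.16), were not called.

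The third lost block, on V from 4296721 to 4310687, held ZC132.11, ZC132.3 and the ncRNA ZC132.10. ZC132.11 fell from 20.8, 12.7 and 16.2 CPM to 6.58, 9.27 and 5.31 CPM (log2 fold change -1.28, SE 0.25, edgeR adjusted p = 0.00618). ZC132.3 fell from 20.1, 14.7 and 13.9 CPM to 7.80, 9.14 and 4.84 CPM (log2 fold change -1.18, SE 0.26, edgeR adjusted p = 0.0209). ZC132.10 fell from 35.9, 31.5 and 38.6 CPM to 16.7, 22.2 and 22.0 CPM (log2 fold change -0.83, SE 0.17, edgeR adjusted p = 0.0108). All mutant libraries were below all wild-type libraries in each. Single libraries carried these calls: ZC132.11 was lost without wild-type replicate 1 or hrde-2 replicate 3 (-1.08 to -1.53 over the alternatives), ZC132.3 without wild-type replicate 1 or hrde-2 replicate 1 or 3 (-0.95 to -1.38), and ZC132.10 without wild-type replicate 3 or hrde-2 replicate 1 (-0.65 to -0.90). The pseudogene WBGene00022521, which spans ZC132.10, was not called (log2 fold change -0.11, SE 0.17).

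The clearest loss of a protein-coding gene outside the blocks was at arrd-13 on II, an arrestin domain gene. It fell from 94.0, 88.4 and 113 CPM to 47.3, 41.4 and 49.3 CPM (log2 fold change -1.12, SE 0.13, edgeR adjusted p = 4.84e-07), and its neighbour arrd-11 fell by 0.66 (SE 0.15, edgeR adjusted p = 0.0206), a call that held in 3 of the 6 fits that left out a replicate. linc-16 on II fell from 18.8, 27.5 and 34.8 CPM to 10.1, 12.0 and 14.1 CPM (log2 fold change -1.16, SE 0.23, edgeR adjusted p = 0.00563), and linc-14 on V fell from 22.3, 28.8 and 29.8 CPM to 12.9, 8.73 and 15.8 CPM (log2 fold change -1.11, SE 0.22, edgeR adjusted p = 0.00568). Both are long intergenic noncoding RNA genes whose groups did not overlap. The call of linc-16 was lost without wild-type replicate 3 or hrde-2 replicate 1 or 2 (-0.86 to -1.41 over the alternatives) and that of linc-14 without hrde-2 replicate 2 (-0.49 to -1.31). The chemoreceptor gene srg-46 on V fell from 18.5, 15.4 and 14.2 CPM to 10.1, 7.53 and 6.56 CPM (log2 fold change -1.002, SE 0.23, edgeR adjusted p = 0.0278). Of 1316 tested chemoreceptor genes, srg-46 and srh-2 were called lower (0.152%, below the 0.311% of all tested genes) and none higher. srg-46 was lost without wild-type replicate 1 or hrde-2 replicate 2 or 3 (-0.84 to -1.19).

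The remaining leads had low levels, from 4.13 to 21.01 CPM over the 6 libraries. Y73B3A.20 on X fell from 15.2, 10.0 and 9.32 CPM to 4.44, 4.84 and 5.31 CPM (log2 fold change -1.27, SE 0.30, edgeR adjusted p = 0.0306). smy-11 on IV, a SmY RNA gene, fell from 13.65, 10.71 and 21.01 CPM to 4.13, 5.78 and 10.3 CPM (log2 fold change -1.24, SE 0.29, edgeR adjusted p = 0.0306). Y44E3A.1 on I fell from 10.7, 12.7 and 13.7 CPM to 5.97, 5.24 and 4.84 CPM (log2 fold change -1.20, SE 0.27, edgeR adjusted p = 0.0212). In these genes the groups did not overlap, although the highest mutant library of smy-11 came close to the lowest wild-type library, and the calls held in 10, 12 and 11 of the 19 alternatives. The pseudogene WBGene00023271 on X fell from 16.7, 14.1 and 20.2 CPM to 9.18, 5.91 and 8.12 CPM (log2 fold change -1.18, SE 0.24, edgeR adjusted p = 0.0108). All of them were lost in at least 2 of the fits that left out a replicate: Y73B3A.20 without wild-type replicate 1 or any hrde-2 replicate, smy-11 without wild-type replicate 3 or hrde-2 replicate 1 or 2, Y44E3A.1 without wild-type replicate 3 or any hrde-2 replicate, and WBGene00023271 without wild-type replicate 3 or hrde-2 replicate 2.

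tRNA genes, transcribed by RNA polymerase III, were called lower at 6 of 275 tested (2.18%, against 0.311% of all tested genes) and higher at none. Their median log2 fold change was -0.29 and 31 of them (11.3%) lay above 0, against 0.00 and 50.6% over all tested genes. The largest loss of all was at the aspartate tRNA gene WBGene00014476 on X (14162026 to 14162097), which fell from 23.3, 24.1 and 19.6 CPM to 10.1, 8.20 and 8.27 CPM (log2 fold change -1.31, SE 0.21, edgeR adjusted p = 0.000283). The groups were well apart, and the call held in all 19 alternatives. The arginine tRNA gene WBGene00014276 on X fell from 14.3, 12.1 and 17.7 CPM to 6.73, 5.11 and 8.90 CPM (log2 fold change -1.14, SE 0.28, edgeR adjusted p = 0.0404), a call lost without wild-type replicate 1 or 3 or hrde-2 replicate 1 or 2. The histidine tRNA gene WBGene00014358 on X fell from 44.4, 52.2 and 72.9 CPM to 39.92, 32.11 and 32 CPM (log2 fold change -0.72, SE 0.16, edgeR adjusted p = 0.0206), a call that held in 3 of the 6 fits that left out a replicate. It was named after its values were seen, because 11 exact copies of its sequence lie in the genome. The 2 sequences below contrast a tRNA gene with 1 copy and a tRNA gene with 11, read 5′ to 3′ from the WBcel235 genome on chromosome X, with the anticodon in capitals.
WBGene00014276, tRNA-Arg, 1 copy: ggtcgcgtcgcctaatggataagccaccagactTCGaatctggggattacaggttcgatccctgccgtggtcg
WBGene00014358, tRNA-His, 11 copies: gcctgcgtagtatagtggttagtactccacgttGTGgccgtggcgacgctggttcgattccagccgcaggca
Of the other copies of WBGene00014358, 9 were tested and none was called. All 9 had a log2 fold change below 0, with a median of -0.42. Of the copies of WBGene00014476, 9 others were tested, none was called and 8 lay below 0, with a median of -0.29. Which copy received a fragment inside an identical stretch cannot be told apart.

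Lost and gained genes differed in length and kind. The median exon length was 2479 bases among the higher genes and 506 among the lower genes. No gene with less than 200 bases of exon was called higher, while 39 were called lower. Of the genes with 2000 bases or more, 35 of 3878 (0.903%) were called higher and 6 lower. Of the higher genes, 52 were protein-coding and 1 was a pseudogene. Of the lower genes, 33 were protein-coding, 27 were ncRNA, 11 were pseudogenes, 6 were snRNA, 6 were tRNA, 3 were lincRNA and 2 were snoRNA genes, and 1 had no annotated type. The 6 snRNA genes were called among 83 tested (7.23%, against 0.311% of all tested genes), of which 12 (14.5%) lay above 0 (median -0.31). Of the 39 lower calls under 200 bases, WBGene00014476 alone held in all 19 alternatives.

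**Figure D4:**
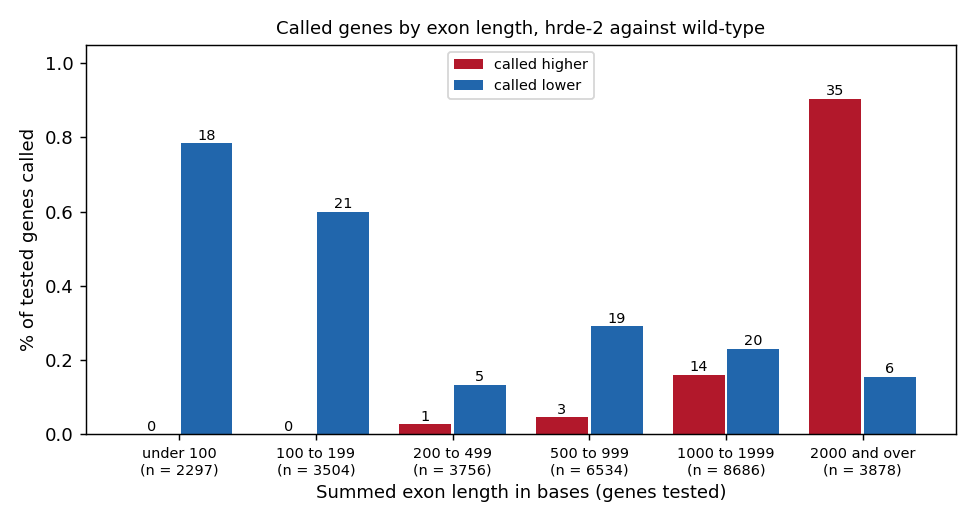
Percent of tested genes called higher (red) or lower (blue) in hrde-2 mutants (y axis, from 0) by summed exon length in bases (x axis, with the number of genes tested). The number over each bar counts the genes called. Higher calls were absent under 200 bases and reached 0.903% at 2000 bases and over, while lower calls were most frequent under 100 bases (0.784%).

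Repeated sequence was common among the lower calls. More than 50% of the 50-base words of the gene recurred elsewhere in the genome for 40 of 89 lower genes (44.9%), for 2 of 53 higher genes (3.77%) and for 5.90% of all tested nuclear genes. No word was repeated in 36.0% of the lower genes, 83.0% of the higher genes and 83.3% of all. The bodies of 35 lower genes and 20 higher genes overlapped another listed gene, and counts did not use strand, so that such partners cannot be separated. The part of repeats in the losses was not tested.

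The chromosomes differed in how calls were spread. Higher genes numbered 19 on I (0.521% of those tested), 11 on II (0.239%), 16 on III (0.475%), 5 on IV (0.0994%), 2 on V (0.0285%) and 0 on X. Lower genes numbered 8 (0.219%), 12 (0.261%), 5 (0.149%), 18 (0.358%), 22 (0.314%) and 24 (0.48%) in the same order. Of all tested genes, 0.185% were higher and 0.311% lower. These numbers count genes and not loci. Single blocks held 5 of the 19 higher genes on I and 7 of the 16 on III. The fbxc row held 10 of the 18 lower genes on IV, and 2 blocks held 5 and 3 of the 22 on V. On X, 19 of the 24 lower genes had less than 200 bases of exon, and 12 were ncRNA genes and 5 tRNA genes. Among protein-coding genes in the middle of 3 equal parts of the autosomes, 22 of 6473 were called higher (0.34%) and 2 lower (0.0309%). In the outer parts 30 of 10509 were called higher (0.285%) and 29 lower (0.276%). Among all tested protein-coding genes 0.265% were higher and 0.168% lower, so the higher shares of both parts lay near that of all.

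Called genes were mostly isolated, but the tested genes next to them leaned the same way. Beside the 35 gained loci of 1 gene, 63 of 70 neighbouring genes had a log2 fold change above 0 (median 0.28), and 17 of them (24.3%) were higher at an unadjusted p below 0.05. Beside the 65 lost loci of 1 gene, 38 of 129 neighbours lay above 0 (median -0.15), and 26 (20.2%) were lower at an unadjusted p below 0.05. Over all tested genes 50.6% lay above 0, and 4.16% were higher and 5.14% lower at that p. The median size was well under that of the called genes, and overlapping neighbours share fragments.

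Summed counts in 100 kb windows, with the nuclear rRNA genes left out, showed this wider pattern. Of 1005 windows, 68 were called higher (6.77%) and 54 lower (5.37%) by edgeR, and 47 of the higher and 35 of the lower windows held no called gene. The changes were small, with a median size of 0.20 on the log2 scale. In the middle parts of the autosomes 42 of 275 windows were higher and none lower. In the outer parts 26 of 552 were higher and 45 lower, and on X 0 of 178 were higher and 9 lower. On I 14 of 50 middle windows were higher, and on III 14 of 46 middle windows were higher, while the left part of III held 7 higher and 12 lower windows.

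The single window with the largest gain was that of the eif-3.I block on I (2400001 to 2500000, log2 fold change 0.83, edgeR adjusted p = 1.52e-08). Runs of 3 neighbouring higher windows lay on I at 6300001 to 6600000 (median 0.18) and on III at 4000001 to 4300000 (0.18), 7700001 to 8000000 (0.17) and 9300001 to 9600000 (0.17). None of the 3 runs on III held a called gene, and that on I held cdc-25.1. The only run of 3 lower windows was the left end of X, from 1 to 300000 (median -0.35), which held 4 lower genes: the pseudogene WBGene00008349 at the very end (log2 fold change -0.91, SE 0.20), Y73B3A.20, elk-2 (-0.66, SE 0.14) and the pseudogene WBGene00022211 (-0.82, SE 0.13). The calls of WBGene00008349 and elk-2 held in 3 of the 6 fits that left out a replicate. Among the 12 windows at chromosome ends, the left end of III was called higher (0.42, SE 0.05), and the left end of X (-0.35, SE 0.09) and the right end of V (-0.27, SE 0.06) were called lower. The other 9 were not called.

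**Figure D5:**
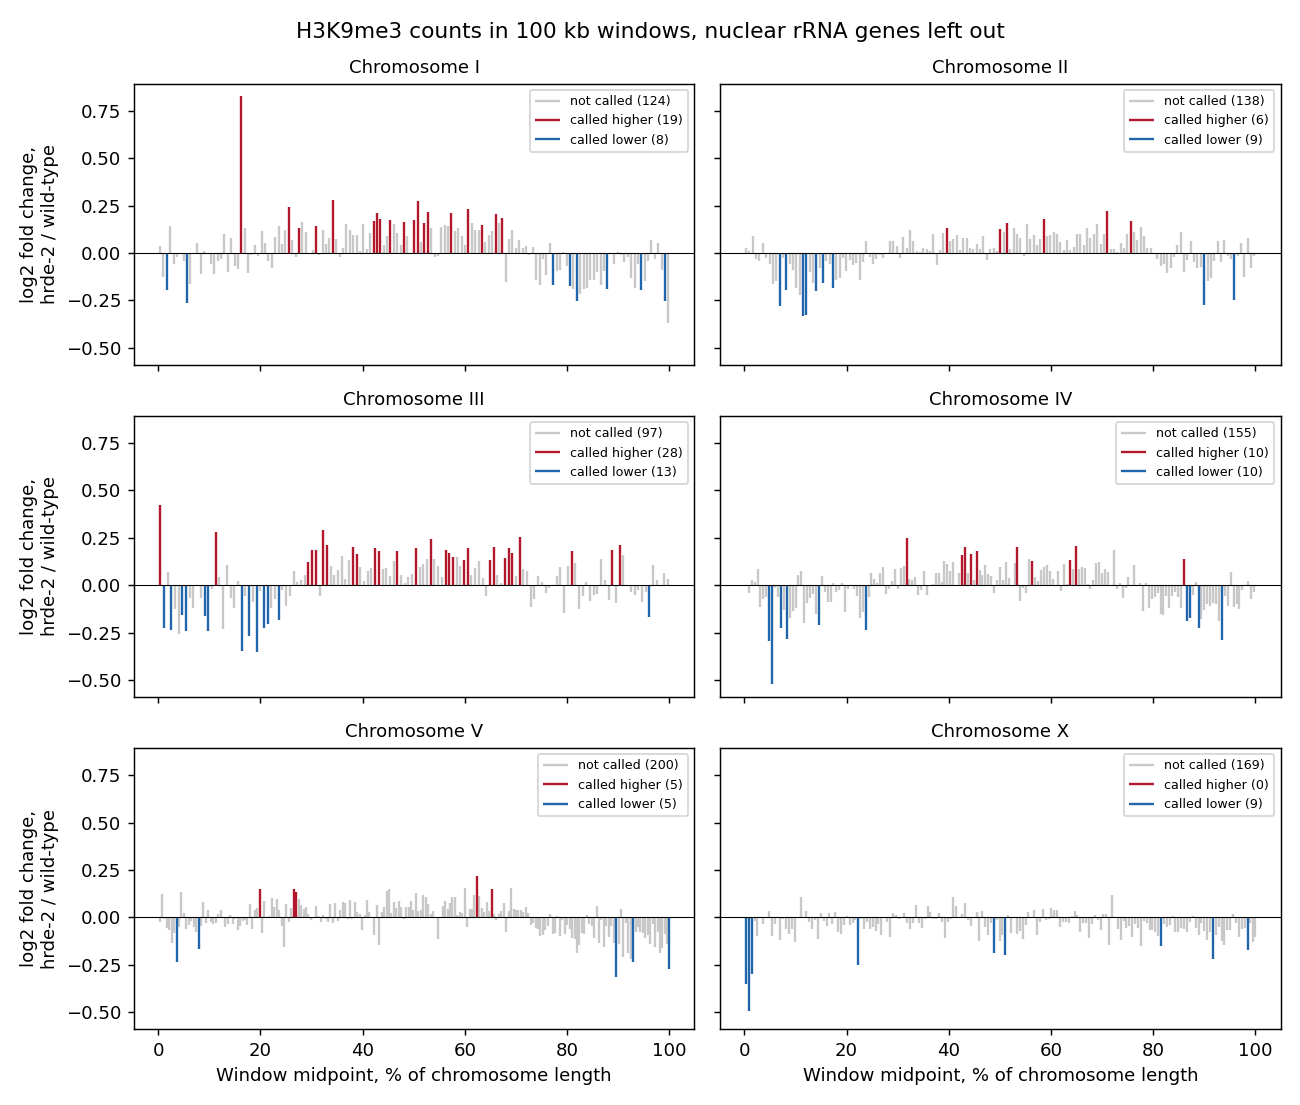
Log2 fold change of each 100 kb window (y axis, hrde-2 over wild-type) against the window's midpoint in percent of chromosome length (x axis), 1 panel per chromosome. Red and blue lines were called higher and lower by edgeR, grey lines were not called. Higher windows gathered in the middle of I and III (14 in each), and X held lower windows only (9).

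The share of nuclear counts (rRNA genes left out) was compared for each chromosome, each of its 3 equal parts, the outer parts of the autosomes and the genes under 200 bases, 26 comparisons in all. With 3 libraries against 3, the exact two-sided permutation test cannot give a p below 0.1, and none passed after adjustment (smallest adjusted p = 0.26). No whole chromosome separated the groups. The groups did not overlap in 10 regions, each at the smallest exact permutation p of 0.1. The middle part of I took 4.02, 4.12 and 3.80% of counts in wild-type and 4.52, 4.38 and 4.20% in hrde-2 mutants. The middle part of III took 4.16, 4.25 and 3.99% and 4.60, 4.46 and 4.39%. Both were higher in every mutant library, as were the middle parts of II (mean 4.66% and 4.93%) and IV (5.09% and 5.40%). In the wild-type IgG library the middle parts of I, II, III and IV took 5.35, 5.55, 5.16 and 5.75%. In the hrde-2 IgG library they took 4.63, 4.65, 3.94 and 4.71%. Lower in every mutant library were the right part of I (7.79% and 7.14%), the left parts of II (6.50% and 6.23%), III (4.09% and 3.93%) and IV (5.59% and 5.45%), the right part of X (5.55% and 5.38%) and the genes under 200 bases, which took 7.04, 7.27 and 7.71% in wild-type and 6.60, 6.36 and 6.72% in the mutants. The difference in the right part of I rested largely on wild-type replicate 3, which took 8.53% there against 7.46 and 7.40% in the others: it was -0.66 percentage points with all libraries and -0.29 without that library, and without the 10 nuclear genes with the most counts it was -0.30 and the groups overlapped. Leaving out wild-type replicate 3 also reduced the differences in the middle parts of I (0.39 to 0.30), II (0.26 to 0.16), III (0.35 to 0.28) and IV (0.31 to 0.19). Those in the left parts of II (-0.27 to -0.21), III (-0.15 to -0.13) and IV (-0.14 to -0.079) and in the genes under 200 bases (-0.78 to -0.60) shrank too. In all of these the groups stayed apart, and the difference in the right part of X grew (-0.17 to -0.23). With the nuclear rRNA genes counted, the left parts of II, III and IV and the right part of X overlapped and their differences turned positive (0.063, 0.053, 0.14 and 0.099 percentage points).

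Against the IgG background, gained and lost genes sat at different levels. As CPM of nuclear counts without rRNA, the 53 higher genes together took 3578, 3452 and 3721 in the wild-type libraries and 6211, 6532 and 6511 in the hrde-2 libraries. In IgG they took 4771 in wild-type (654 counts, Wilson 95% interval 4420 to 5150) and 5162 in hrde-2 (53 counts, 3949 to 6745). Wild-type H3K9me3 was thus below wild-type IgG at these genes, and the hrde-2 libraries were above wild-type IgG and within the interval of their own IgG library. The 89 lower genes took 6348, 6754 and 7356 in wild-type and 4148, 4027 and 4298 in hrde-2. In IgG they took 3618 in wild-type (496 counts, interval 3314 to 3951) and 7889 in hrde-2 (81 counts, interval 6352 to 9793). Wild-type H3K9me3 stood above its IgG library there, and hrde-2 H3K9me3 stood below its own. Since the genes were chosen by the H3K9me3 contrast, those sums are a description, and each IgG value is 1 library. Per kb of exon, the median level of the higher genes was 18.3 CPM in wild-type and 35.4 CPM in hrde-2, and that of the lower genes of at least 200 bases was 51.4 and 29.9 CPM. Over all tested nuclear genes it was 21.8 and 22.2 CPM, and over those of at least 200 bases it was 19.6 and 20.0 CPM.

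None of the 12 germ line marker genes was called. Of them 11 lay above 0 (median 0.34). The summed levels per kb in this paragraph are CPM by library total alone, without the TMM factor. Germ line markers gave 20.2 to 22.0 CPM per kb in the wild-type libraries and 26.8 to 28.5 in the hrde-2 libraries, ranges that did not overlap. Hypodermis markers gave 28.5 to 32 and 32.7 to 33.6 CPM per kb, also without overlap, with 3 of the 5 genes above 0. All nuclear genes without rRNA, summed alike, gave 22.7 to 25.3 and 25.3 to 26.4 CPM per kb. Muscle markers gave 45.8 to 51.2 and 45.5 to 55.5, neuron markers 18.0 to 21.6 and 21.5 to 22.2, intestine markers 53.7 to 55.2 and 54.4 to 63.6, and sperm markers 52.8 to 60.3 and 60.3 to 70.5 CPM per kb. No gene of these lists was called, and the part of such shifts in the gains was not tested.

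The study listed genes by the small RNAs recovered with HRDE-1, and these lists were set beside the loci by their membership only. Of 590 genes listed by these small RNAs from mut-2; hrde-2 animals, 585 were tested, 2.04% of all tested genes. Of these 17 were called higher (2.91%, against 0.185% of all tested genes), which is 32.1% of all higher genes and touched 15 of the 40 gained loci, and 3 were called lower (0.513%, against 0.311%). Of 965 genes listed from mut-2 single mutants, 949 were tested, 3.31% of all tested genes. Of these 2 were called higher (ddx-10 and orc-2, 0.211%), and 13 were called lower (1.37%), 14.6% of all lower genes. The lists share 71 genes. The members of the first list with leading loci were eif-3.I, abtm-1, orc-2, C28A5.2, C28A5.1, ego-1, jhdm-1, pid-2 and npp-6. Over the tested members the median log2 fold change was 0.12 in the first list and -0.01 in the second.

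Tested directly within the fit, 91 genes (0.318%) differed between hrde-2 and hrde-1 mutants. Of the 53 higher genes 26 were among them with hrde-2 higher, and of the 89 lower genes 4 with hrde-2 lower. The called genes were chosen with the same hrde-2 libraries, so those counts are a description. Both mutants share the wild-type libraries, so their fold changes against wild-type are given side by side only. The higher genes had a median of 0.69 in hrde-2 and 0.18 in hrde-1, and the lower genes had a median size of 0.74 in hrde-2 and a median of -0.61 in hrde-1. The fbxc-8 copy WBGene00045299 gave -0.97 in hrde-2 and -1.39 in hrde-1, and arrd-13 gave -1.12 and -0.93. eif-3.I gave 2.96 in hrde-2 and 0.08 in hrde-1.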

How the data were processed

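The deposited values are raw counts of fragments per gene. The authors aligned paired-end reads to the WS258 genome with Bowtie2 2.5.0 and counted fragments on exons without strand with featureCounts (Subread 2.0.1), so introns and intergenic regions do not enter, and removal of duplicate fragments is not given in the sources used here. Every gene row had a name. Symbols and gene types came from Ensembl release 115 by gene ID (46564 of 46760 matched), and sequences were read from the WBcel235 genome at the files' coordinates. edgeR 4.0.16 in R 4.3.3 tested genes that passed filterByExpr (minimum count 10) with TMM scaling, all 9 H3K9me3 libraries in 1 fit without a replicate block, and Benjamini-Hochberg adjustment at 0.05. The code was tested on simulated data. The replicates are biological by the methods, and p-values measure the spread between these libraries. No spike-in scaled the libraries. Windows of 100 kb were tested alike, and shares by exact permutation.

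Named genes were every called gene of a block, the leads of the 12 gained and 12 lost loci with the largest lead change, up to 2 genes beside each block, and hrde-1 and hrde-2. Genes named otherwise were chosen after their values were seen. The members and lists were chosen with earlier results of these data known. Alternatives were DESeq2 1.42.0, other scalings, filters, windows and joining rules, thinning to wild-type replicate 2, the replicate block, and leaving out libraries. The end of the study's list for mut-2; hrde-2 animals, 154 genes that repeat another list, was left out.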

Additional observations from a re-analysis of the deposited data

Results flagged for a closer look

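Of the leading genes of the 24 largest loci, 11 differed between hrde-2 and hrde-1 mutants in a direct test of that difference (edgeR contrast within the same fit, adjusted over all genes tested). Their log2 fold changes of hrde-2 over hrde-1 were 2.88 for eif-3.I (adjusted p = 5.83e-19), 1.32 for orc-2 (adjusted p = 1.34e-06), 1.43 for fbxa-6 (adjusted p = 1.44e-07), 0.844 for herd-1 (adjusted p = 4.32e-05) and 0.757 for tebp-2 (adjusted p = 0.000136). They were 0.912 for C28A5.2 (adjusted p = 1.88e-06), 0.494 for ego-1 (adjusted p = 0.0201), 0.717 for pid-2 (adjusted p = 0.0016) and 0.725 for hcp-6 (adjusted p = 0.000156). Of the lost leads, WBGene00014476 gave -0.911 (adjusted p = 0.0173) and srg-46 gave -1.16 (adjusted p = 0.00234). These genes were chosen by their difference between hrde-2 mutants and wild-type, and the same 3 hrde-2 libraries enter both contrasts, so the shared direction is not independent support. With 3 libraries per group, no test for a single outlying library was made.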

How the results depend on the processing

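The numbers of called genes, loci and windows moved with the scaling, the filter and the libraries. With total counts alone, 99 genes were higher and 34 lower, in 80 and 26 loci; with TMM restricted to the 10% of genes densest in counts per kb, 245 and 24, in 201 and 17 loci. Without a filter, 172 genes in 137 loci were lower, and with all libraries thinned to wild-type replicate 2, 51 genes in 44 loci. Lower windows numbered 35 at 200 kb, and DESeq2 called 109 windows higher and 92 lower. Leaving out each wild-type or hrde-2 replicate in turn gave 29 to 91 higher genes and 21 to 157 lower genes, 18 to 76 and 11 to 134 loci, and 25 to 55 and 20 to 47 windows, with the cause not tested. Without wild-type replicate 1, 157 genes were lower; without wild-type replicate 3, 91 rose and 42 fell. Leaving out hrde-2 replicate 1 gave 34 lower genes, leaving out replicate 2 gave 29 higher and 21 lower, and leaving out replicate 3 gave 32 higher and 57 lower. Leaving out each hrde-1 replicate, chosen after seeing the data, gave 46 to 50 and 77 to 92 genes. The regions without overlap in their share of counts numbered 10, and 9 to 14 over the alternatives. None of the called block genes and leads, nor hrde-1 or hrde-2, changed sign. The genes beside the blocks were not followed through the alternatives. Over all 19 alternatives 24 higher and 12 lower genes kept their call. The replicate numbers do not pair the libraries: same-numbered wild-type and hrde-2 libraries correlated at 0.0983, -0.0198 and 0.116 in their deviations, and a fit with the number as a replicate block called 66 and 100 genes, in 51 and 81 loci, and 69 and 61 windows. Depth was lowest in wild-type replicate 2, where 3 counts are 2.04 CPM, and in the hrde-2 IgG library 1 count is 71.7 CPM.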
